A study of Mus musculus with 4 samples.

Results

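Cfl2, Wasl, Twf1, Rac1, Rock2, Arhgap35, Cttn, Git2 and Clic4 are genes of the actin cytoskeleton that have been reported as targets of the microRNA miR-142. The list held these 9 genes, each read from the probe set that carries its symbol alone and, where a gene had several, from the one with the highest mean. Of the 9, 8 had such a probe set, out of 19938 genes measured in this way, and Rock2, a kinase that activates myosin contraction downstream of RhoA, was not measured here. They were chosen by name and not by their values on these arrays, but with earlier results of the same arrays known.

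The cells were dendritic cells (DCs), the antigen-presenting cells that start T cell responses, from C57BL/6 bone marrow cultured for 8 days with the growth factor Flt3-L at 200 ng/ml. All 4 groups were grown in this way and depleted of B220-positive cells by sorting. The groups were ko (miR-142-/-) CD4-equivalent DCs, wt (miR-142+/+) CD4-equivalent DCs, ko CD8-equivalent DCs and wt CD8-equivalent DCs. CD4-equivalent cells were sorted as CD11c+ CD172+ CD24low CD11b+, and CD8-equivalent cells as CD11c+ CD172- CD24+ CD11blow. Each group was measured on 1 array, with the number of mice or cultures pooled for it and the deleted part of the locus not stated in the labels. The labels also give no age for the mice.

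A microRNA guides Argonaute proteins to messenger RNAs, mostly by pairing between its seed, bases 2 to 8, and sites in the 3' untranslated region, and the paired RNA is translated less and degraded. miR-142 is made in most blood cells, and both arms of its hairpin are loaded. Actin filaments drive the migration, antigen uptake and T cell contact of DCs, and the listed genes act at several steps of filament turnover: cofilin and twinfilin take filaments apart, N-WASP and cortactin promote branching through the Arp2/3 complex, and Rac1, Git2, Arhgap35 and Rock2 encode signalling proteins that steer these steps.

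The mature sequences of the deleted microRNA are shown because a microRNA recognises its targets mainly through the seed (in capitals). They are from RefSeq on GRCm38.p6, plus strand of chromosome 11, at chr11:87756903-87756925 for the 3p arm and chr11:87756867-87756887 for the 5p arm.
miR-142a-3p: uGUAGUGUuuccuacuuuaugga
miR-142a-5p: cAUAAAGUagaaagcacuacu
Mir142 hairpin, with both arms in capitals: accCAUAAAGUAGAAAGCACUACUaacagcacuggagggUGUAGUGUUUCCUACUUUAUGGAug
The seeds of the arms differ, so they pair with different sites, ACACUAC for the 3p arm and ACUUUAU for the 5p arm. Of 1738 mature mouse microRNAs in the RefSeq table, 0 others carried either seed. Which members hold such a site was not analysed here.

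Values are RMA log2 expression values as deposited, and a difference of 1 on this scale is 2-fold. A gene was compared between a pair of arrays when the higher value was at least 5.68, the median over the probe sets of single genes (the floor). Probe sets differ in how brightly they read, so levels are compared between arrays for a gene and not between genes. With 1 array per group a difference between a pair of arrays cannot be set against replicate error and carries no p-value. In bulk samples fewer cells of a type and less RNA per cell cannot be told apart. On each array 9774 to 9821 genes reached the floor. Mir142, the gene of the deleted microRNA, read 4.92 in ko and 10.37 in wt CD4-equivalent DCs, and 4.79 in ko and 9.87 in wt CD8-equivalent DCs. Its ko values lay below the floor, though the probe set checks the labels only if it lies in the deleted part. Among the sort genes, CD8-equivalent minus CD4-equivalent, Sirpa (CD172a) differed by -2.25 in ko and -2.42 in wt, and Cd24a by 0.73 in ko and 1.78 in wt, the directions of the gates.

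Of the 9 genes, 4 were higher in ko than in wt DCs in both subsets: Cfl2, Arhgap35, Wasl and Twf1, each by more than 1.5-fold. Rac1, Git2 and Clic4 differed by less than 0.14 on the log2 scale in either subset, Cttn lay below the floor on every array, and Rock2 was not measured. Of the 7 members that reached the floor, the 4 passed 1.5-fold toward ko in CD4-equivalent DCs, where 3.98% of 9978 compared genes did, and the same 4 passed it in CD8-equivalent DCs, where 4.61% of 9972 did. At 1.5-fold or more in both subsets the share over 9711 compared genes was 1.79%. None of the 7 was at least 1.5-fold lower in either subset, where 3.72% and 3.48% of genes were. At 2-fold, 2 members were higher in ko among CD4-equivalent DCs (Cfl2 and Arhgap35, against 1.39% of genes) and 3 among CD8-equivalent DCs (these and Wasl, against 1.14% of genes). Cfl2 and Arhgap35 passed 2-fold in both subsets, as did 0.412% of genes.

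Cfl2, the muscle-type cofilin that severs and depolymerises actin filaments, had the largest mean difference between the genotypes among the members. It read 10.56 in ko and 9.20 in wt CD4-equivalent DCs, and 10.41 in ko and 9.14 in wt CD8-equivalent DCs. The arrays of each genotype lay close together, within 0.15 in ko and 0.06 in wt, and the lower ko value stood 1.21 above the higher wt value. Cfl2 was thus 2.56-fold higher in ko CD4-equivalent and 2.41-fold higher in ko CD8-equivalent DCs. A total of 65 of the 9978 compared genes had a larger difference toward ko in CD4-equivalent DCs, and 45 of 9972 in CD8-equivalent DCs. In the limma fit over all 4 arrays its mean log2 difference was 1.31 ± 0.12 (SE), with adjusted p = 0.0503 after Benjamini-Hochberg adjustment over 10239 genes.

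Arhgap35, which encodes the GTPase-activating protein p190RhoGAP that switches off RhoA, read 8.93 in ko and 7.82 in wt CD4-equivalent DCs, and 9.61 in ko and 8.40 in wt CD8-equivalent DCs. The order of the arrays from high to low was ko CD8-equivalent, ko CD4-equivalent, wt CD8-equivalent and wt CD4-equivalent, with both ko values above both wt values by at least 0.53. The ko over wt ratio was 2.15-fold among CD4-equivalent and 2.32-fold among CD8-equivalent DCs. limma gave a mean genotype difference of 1.16 ± 0.12 (SE), with adjusted p = 0.0533.

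Wasl encodes N-WASP, which activates the Arp2/3 complex under Cdc42 and is the widely expressed relative of the blood cell protein WASP. It read 9.92 in ko and 9.09 in wt CD4-equivalent DCs, and 9.81 in ko and 8.67 in wt CD8-equivalent DCs. Both ko values lay above both wt values, with a gap of 0.72, while the wt arrays differed from each other by 0.42. The ko over wt ratio was 1.78-fold among CD4-equivalent and 2.20-fold among CD8-equivalent DCs. The mean genotype difference in limma was 0.99 ± 0.13 (SE), with adjusted p = 0.067.

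Twf1 encodes twinfilin-1, which binds actin monomers and capping protein and speeds the loss of subunits from filament ends. Its probe set with the higher mean read 10.82 in ko and 10.07 in wt CD4-equivalent DCs, and 10.94 in ko and 10.13 in wt CD8-equivalent DCs. The arrays of a genotype lay within 0.12 of each other, and the gap between the genotypes was 0.68. The ko over wt ratio was 1.68-fold and 1.75-fold in the same order of subsets, and limma gave 0.78 ± 0.12 (SE) with adjusted p = 0.079. The second Twf1 probe set, which the annotation ties to the same transcripts, read 9.45 in ko and 8.78 in wt CD4-equivalent DCs, and 9.45 in ko and 8.70 in wt CD8-equivalent DCs. Both probe sets put ko above wt by similar amounts, 0.75 and 0.67 in CD4-equivalent and 0.80 and 0.76 in CD8-equivalent DCs. The genome position of the second probe set was not examined, so it may not be a separate reading of Twf1.

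**Figure D1:**
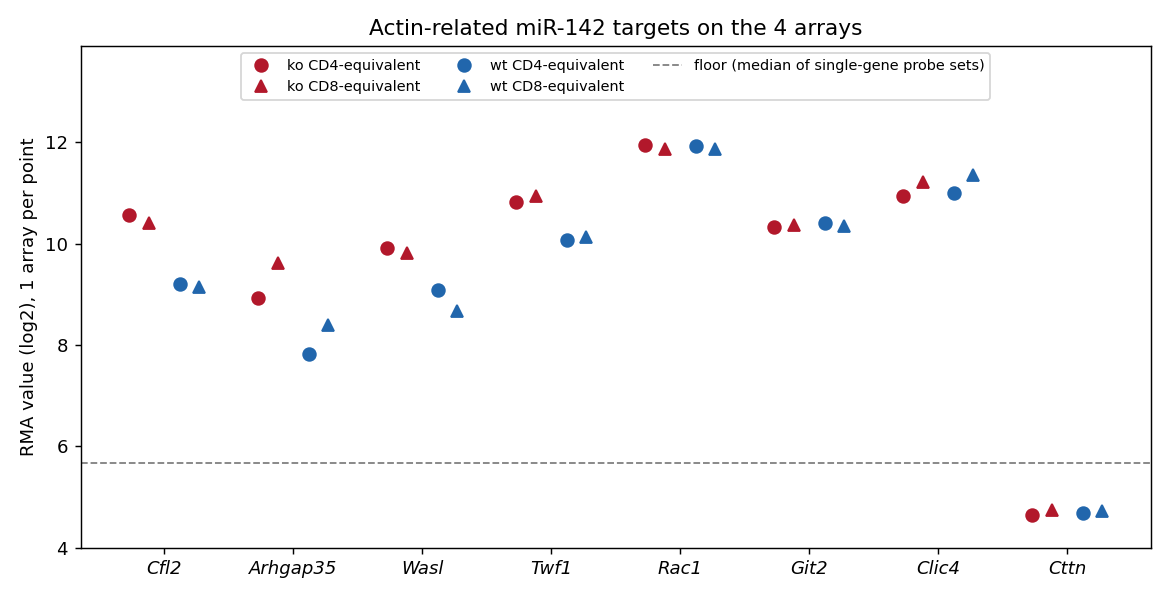
RMA log2 values (vertical axis) of the 8 measured genes, 1 point per array, with ko in red left of wt in blue, circles for CD4-equivalent and triangles for CD8-equivalent DCs, and the floor of 5.68 as a dashed line. For Cfl2, Arhgap35, Wasl and Twf1 both ko points lie above both wt points, for Rac1, Git2 and Clic4 the genotypes overlap, and Cttn lies below the floor at 4.64 to 4.74.

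The other measured genes did not separate the genotypes. Rac1, the GTPase that drives lamellipodia, read 11.95 in ko and 11.93 in wt CD4-equivalent DCs, and 11.87 in ko and 11.86 in wt CD8-equivalent DCs. All 4 values lie within 0.1 of each other, and the genotypes overlap. Git2, an Arf GTPase-activating scaffold that carries PIX and PAK proteins to focal complexes, read 10.33 in ko and 10.42 in wt CD4-equivalent DCs, and 10.36 in ko and 10.36 in wt CD8-equivalent DCs. Its ko value in CD8-equivalent DCs lies between the wt values, so the genotypes overlap. Clic4, a chloride intracellular channel family protein that moves with the actin cortex, read 10.95 in ko and 11.01 in wt CD4-equivalent DCs, and 11.21 in ko and 11.35 in wt CD8-equivalent DCs. The Clic4 values of the genotypes overlap, with ko minus wt differences of -0.06 and -0.13, the first of which was 0.008 with arrays centred on their medians.

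The limma intervals bound how far these genes could have differed under the model. The 95% interval of the mean ko minus wt difference ran from -0.29 to 0.31 for Rac1, from -0.34 to 0.26 for Git2 and from -0.40 to 0.21 for Clic4. For comparison it ran from 1.01 to 1.61 for Cfl2, from 0.86 to 1.47 for Arhgap35, from 0.64 to 1.33 for Wasl and from 0.48 to 1.08 for Twf1. The intervals of the 2 sets of genes do not overlap on this scale. The sets were split by this same genotype difference, so the gap is not separate evidence that they differ. Without replicate arrays the intervals cover the scatter among these arrays alone. This scatter is how far the genotype difference varied between the subsets, moderated by limma with 3.98 prior degrees of freedom from all tested genes. Cttn, which encodes cortactin, a stabiliser of branched filaments, read 4.64 in ko and 4.69 in wt CD4-equivalent DCs, and 4.74 in ko and 4.73 in wt CD8-equivalent DCs, so a difference at its level was not detectable.

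limma tested the genotype effect common to both subsets in a model that uses the subsets as repeats of the genotype difference, with 1 residual degree of freedom. No member passed an adjusted p of 0.05 there, where 0.107% of 10239 genes were called higher and 0.0586% lower in ko. At an unadjusted p under 0.05, 4 members were higher in ko (Cfl2, Arhgap35, Wasl and Twf1, with p from 0.000103 to 0.00116) and 0 lower, where 7.34% of genes were higher and 8.27% lower. By this p Cfl2 ranked 21, Arhgap35 32, Wasl 115 and Twf1 147 among all genes tested. With limma's trended and robust prior, or with arrays centred on their medians, all of these 4 were called. A floor 1 log2 unit higher gave 3 of them, and the lowest probe set of each gene gave 2. After cyclic loess, with the mean of a gene's probe sets, or without the floor, none was called.

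**Figure D2:**
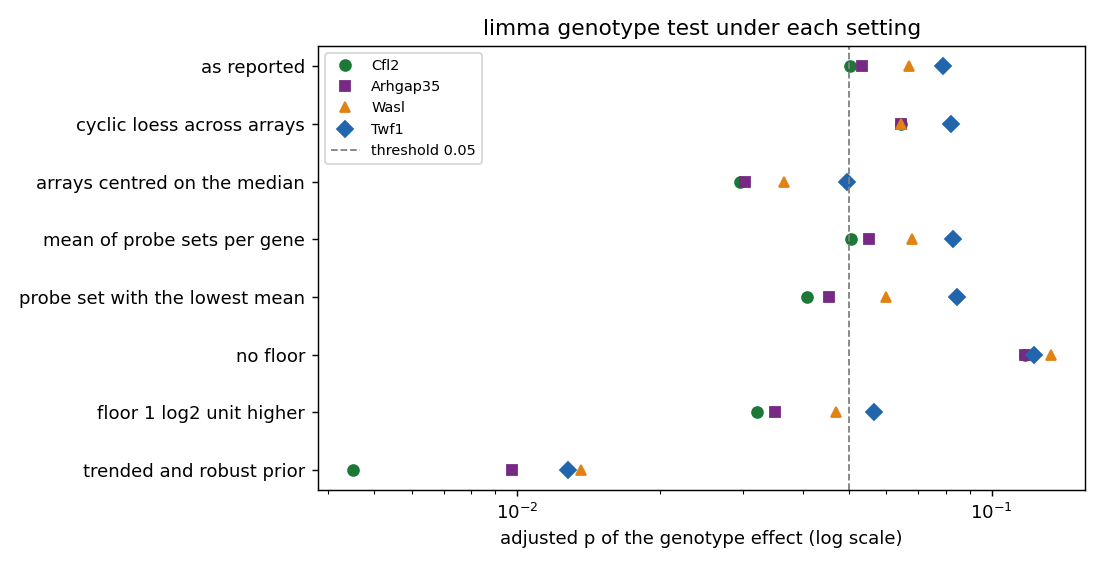
Adjusted p of limma's genotype effect (horizontal axis, log scale) for Cfl2, Arhgap35, Wasl and Twf1 under the reported setting and 7 alternatives (rows), with the threshold of 0.05 as a dashed line. The reported values, 0.0503 to 0.079, lie just right of the line, and the genes cross it under some settings.

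The members were described together by their median, though they were not chosen at random. Over the 7 members above the floor the median ko minus wt difference was 0.75 among CD4-equivalent and 0.80 among CD8-equivalent DCs, where the medians over 10239 genes were -0.07 and 0.003. With Cttn, which lay below the floor, the medians over the 8 measured members were 0.38 and 0.41. The 7 fall into 4 between 0.75 and 1.36 and the other 3 between -0.13 and 0.02, and Twf1 is the middle one in both subsets. The lowest ko value was above the highest wt value for 4 of the 7 members above the floor, where 9.75% of genes showed this, and the highest ko value was below the lowest wt value for 0 of 7, where 18.8% of genes did.

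**Figure D3:**
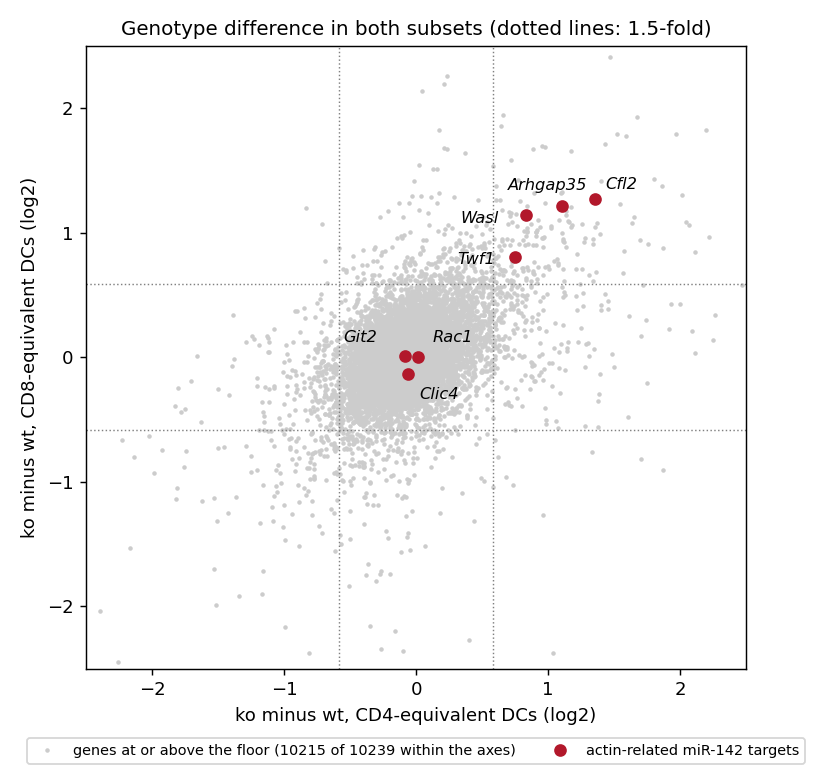
The ko minus wt log2 difference in CD4-equivalent DCs (horizontal axis) against that in CD8-equivalent DCs (vertical axis), with genes at or above the floor in grey, the listed genes in red, and dotted lines at 1.5-fold. Cfl2, Arhgap35, Wasl and Twf1 lie beyond 1.5-fold toward ko on both axes, and Rac1, Git2 and Clic4 lie within 0.14 of 0.

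The size of the genotype difference was similar in the subsets for most members. CD8-equivalent minus CD4-equivalent, it differed by -0.09 for Cfl2, 0.11 for Arhgap35, 0.05 for Twf1 and 0.31 for Wasl, which had the widest gap. Within this design the difference between the subsets takes the last degree of freedom, so it was not tested.

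Between the subsets, Arhgap35 was the member that limma called. CD8-equivalent minus CD4-equivalent, it differed by 0.68 in ko and 0.58 in wt, and limma gave a mean of 0.63 ± 0.12 (SE) with adjusted p = 0.0323, where 7.98% of genes were called higher in CD8-equivalent DCs and 6.35% lower. Clic4 was higher by 0.26 in ko and 0.34 in wt, but limma's adjusted p was 0.15. For the remaining members above the floor limma's adjusted p of the subset effect lay between 0.245 and 0.949. Their means, CD8-equivalent minus CD4-equivalent, ran from -0.26 for Wasl to 0.09 for Twf1.

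The closest paralogs of the members gave other values. Next to Cfl2, the main non-muscle cofilin Cfl1 read 12.65 in ko and 12.65 in wt CD4-equivalent DCs and 12.69 in ko and 12.69 in wt CD8-equivalent DCs, and the related depolymerising factor Dstn was 0.54 and 0.37 higher in ko in the same order of subsets. Next to Arhgap35, its relative Arhgap5 was 0.73 higher in ko CD4-equivalent and 0.39 higher in ko CD8-equivalent DCs. Was, the WASP gene itself, stood lower in ko by -0.26 and -0.32 while Wasl stood higher, and Twf2 stood lower by -0.19 and -0.39 while Twf1 stood higher. None of these paralogs was called by limma, whose adjusted p ran from 0.179 for Arhgap5 to 0.999 for Cfl1.

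For the members that did not separate the genotypes, the paralogs were also under 1.5-fold. The blood cell Rac gene Rac2 differed by -0.09 among CD4-equivalent and 0.19 among CD8-equivalent DCs, Rac3 by 0.31 and 0.17, Git1 by 0.15 and 0.11, and Clic1 by -0.002 and -0.14. Rock1, the paralog of the unmeasured Rock2, read 10.53 in ko and 10.60 in wt CD4-equivalent DCs, and 10.74 in ko and 10.62 in wt CD8-equivalent DCs. Hcls1, the blood cell relative of the cortactin gene, read 11.17 in ko and 11.48 in wt CD4-equivalent DCs and 11.11 in ko and 11.36 in wt CD8-equivalent DCs, lower in ko by -0.31 and -0.25. Clic5 lay below the floor on every array. Whether a member and its paralog differ from each other was not tested.

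**Figure D4:**
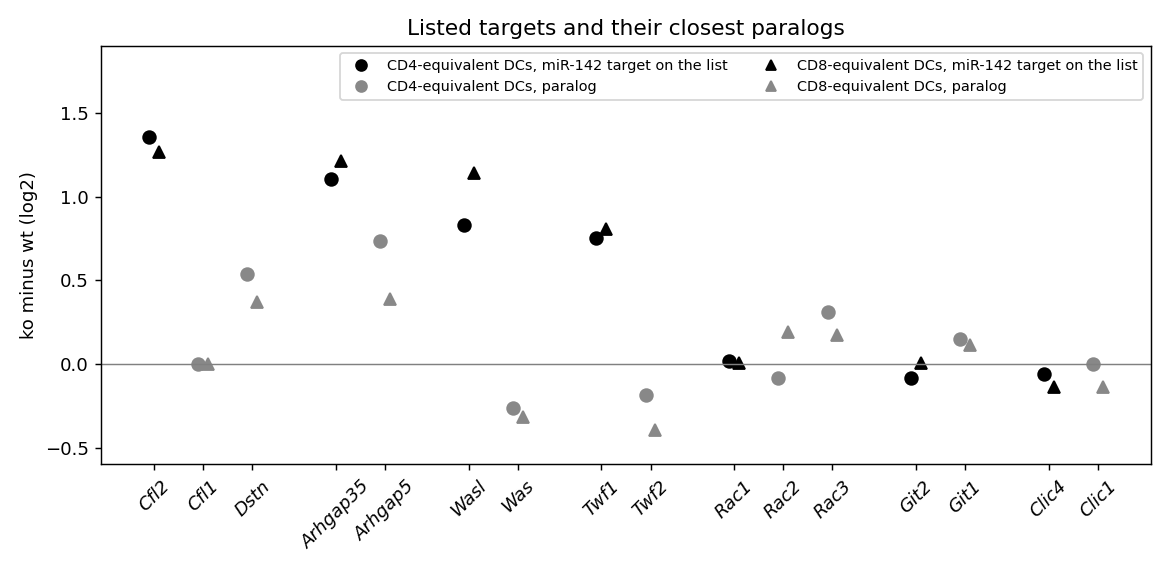
The ko minus wt log2 difference (vertical axis) of each listed gene above the floor (black) and its closest paralogs (grey), with circles for CD4-equivalent and triangles for CD8-equivalent DCs. Cfl2, Wasl and Twf1 lie above 0.7 in both subsets while Cfl1, Was and Twf2 lie between -0.39 and 0.0004, and the paralogs Dstn (0.54 and 0.37) and Arhgap5 (0.73 and 0.39) lie above 0 in both.

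The wider actin machinery was read from listed genes other than the members. Of 89 further listed genes of the same families and complexes, 84 were measured and 70 reached the floor, and limma's genotype test called 0 of these 70 after adjustment, with 4 higher (Rhoq, Capg, Dstn and Arhgap5) and 2 lower (Rnd3 and Arpc5) at an unadjusted p under 0.05, where 7.34% of all genes were higher and 8.27% lower. Their median ko minus wt difference was -0.09 among CD4-equivalent and -0.04 among CD8-equivalent DCs. Of those compared, 5 of 68 passed 1.5-fold toward ko in CD4-equivalent DCs (Nckap1, Rhoc, Rhoq, Arhgap5 and Capg), against 3.98% of all genes, and 2 of 70 did in CD8-equivalent DCs, against 4.61%. None passed it toward wt in either subset, against 3.72% and 3.48% of all genes. The 2 that passed it in both subsets were the Cdc42-related GTPase Rhoq (0.82 and 1.01, limma adjusted p = 0.067) and the filament capping protein Capg (0.69 and 0.62, adjusted p = 0.102).

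Nckap1, a subunit of the WAVE complex that activates Arp2/3, was the listed gene other than Rhoq past 2-fold in a subset. Its difference was 1.04 among CD4-equivalent and 0.07 among CD8-equivalent DCs. It read 6.57 in ko and 5.52 in wt CD4-equivalent DCs, the latter below the floor, and 6.03 in ko and 5.95 in wt CD8-equivalent DCs. All 9 measured Arp2/3 and cortactin-related genes other than Cttn lay between -0.33 and -0.01 in CD4-equivalent DCs and between -0.51 and 0.02 in CD8-equivalent DCs. The capping protein list, which holds the subunits that twinfilin binds, had medians of -0.07 and -0.12. Between subsets, limma called 2 of the 70 listed genes above the floor higher in CD8-equivalent DCs (Nck2 and Cyfip2), against 7.98% of all genes. It called 3 of the 70 lower (Ssh3, Abi3 and Rnd3), against 6.35%.

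The 5 genes whose pattern over the 4 arrays lay closest to that of Cfl2 were Cd151, Rab12, Peli2, Tgfbr1 and Tanc2, at distances of 0.15 to 0.25 on the log2 scale. Tgfbr1, the type I receptor of TGF-beta, read 10.61 in ko and 9.22 in wt CD4-equivalent DCs, and 10.39 in ko and 9.40 in wt CD8-equivalent DCs. Cd151, a tetraspanin, read 9.43 in ko and 8.03 in wt CD4-equivalent DCs, and 9.22 in ko and 7.80 in wt CD8-equivalent DCs. Among the members, Wasl was the nearest to Cfl2, at rank 17 of all genes, followed by Twf1 at rank 47 and Arhgap35 at rank 115. The ranking rests on 4 arrays.

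Promoter sequences were examined because Cfl2 and Arhgap35 were at least 2-fold higher in ko in both subsets. RefSeq promoter windows of 300 bases (GRCm38.p6) were found for 7 of the 9 genes. The windows of Cfl2 (chr12:54862828-54863127, minus strand) and Arhgap35 (chr7:16614944-16615243, minus strand) follow, with CCAAT boxes and GC boxes (GGGCGG), sought on both strands, in capitals.
Cfl2 promoter: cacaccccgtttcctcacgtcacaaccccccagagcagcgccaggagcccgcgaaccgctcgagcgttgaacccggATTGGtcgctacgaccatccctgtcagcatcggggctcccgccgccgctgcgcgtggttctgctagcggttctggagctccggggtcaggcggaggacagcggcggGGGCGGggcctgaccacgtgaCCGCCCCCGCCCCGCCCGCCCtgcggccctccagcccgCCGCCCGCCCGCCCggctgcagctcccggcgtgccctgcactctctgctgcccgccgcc
Arhgap35 promoter: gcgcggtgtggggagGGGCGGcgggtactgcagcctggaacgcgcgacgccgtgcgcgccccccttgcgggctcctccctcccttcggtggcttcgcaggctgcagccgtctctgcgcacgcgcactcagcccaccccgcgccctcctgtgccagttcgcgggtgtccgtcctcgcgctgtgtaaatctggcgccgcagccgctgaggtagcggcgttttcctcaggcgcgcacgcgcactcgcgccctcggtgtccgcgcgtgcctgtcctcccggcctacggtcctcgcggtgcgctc
The Cfl2 window held 8 GC box matches, some of them overlapping, and 1 CCAAT match, and the Arhgap35 window held 1 and 0, with 0 bases shared between the motifs. Wasl had 2 GC boxes and 1 CCAAT box, Twf1 3 and 1, Clic4 4 and 1, Git2 3 and 0, and Rock2 6 and 0. Of 32851 mouse promoter windows, 35.7% held a GC box and 37.4% a CCAAT box. The CArG box, the binding motif of the actin-responsive factor SRF, was found in 1.63% of windows and in 0 of these genes, which says only that these letters are absent from the windows.

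Markers of other cells differed between the genotypes on some arrays. The summed linear level of 14 neutrophil markers was 4496 in ko and 1171 in wt CD4-equivalent DCs, and 885 in ko and 667 in wt CD8-equivalent DCs. In CD4-equivalent DCs 10 of 13 compared passed 2-fold toward ko, against 1.39% of all genes. Of the 14, 13 reached the floor in ko and 5 in wt CD4-equivalent DCs, and 2 in ko and 1 in wt CD8-equivalent DCs. Among their granule genes, Ngp read 9.47 in ko and 5.61 in wt CD4-equivalent DCs. There Lcn2 read 10.28 in ko and 6.47 in wt, and Ltf read 6.31 in ko and 4.56 in wt, while Camp lay below the floor on all arrays. Mmp8, a further granule gene, went the other way, with 7.79 in ko and 8.48 in wt CD4-equivalent DCs. Csf3r, a receptor gene of the list, did so too, with 7.09 in ko and 7.83 in wt. Mpo was higher in ko in both subsets, by 1.85 among CD4-equivalent and 2.76 among CD8-equivalent DCs. For 9 plasmacytoid DC markers the sums were 10501 in ko and 5982 in wt CD4-equivalent DCs and 14416 in ko and 12142 in wt CD8-equivalent DCs. For 12 measured CD8-equivalent DC markers they were 25951 in ko and 18252 in wt CD4-equivalent DCs and 38311 in ko and 42483 in wt CD8-equivalent DCs. For 12 monocyte and macrophage markers they were 16653 in ko and 17491 in wt CD4-equivalent DCs and 4422 in ko and 9516 in wt CD8-equivalent DCs. Of 9 compared in CD8-equivalent DCs, 6 passed 2-fold toward wt, where 3.48% of all genes passed 1.5-fold toward wt. Of 10 compared in CD4-equivalent DCs, 2 passed 2-fold toward ko (C1qb and Chil3) and 1 toward wt (Adgre1). There 1.39% of all genes passed 2-fold toward ko and 3.72% passed 1.5-fold toward wt. Cfl2, Arhgap35, Wasl and Twf1 passed 1.5-fold toward ko in each subset. The neutrophil sum was 3.84 times as high in ko as in wt CD4-equivalent DCs and 1.33 times in CD8-equivalent DCs. In the same order, the plasmacytoid DC sum was 1.76 and 1.19 times as high, and the macrophage sum 0.952 and 0.465 times. The sum of CD8-equivalent DC markers was 1.42 and 0.902 times as high, and that of 12 CD4-equivalent DC markers 0.995 and 1.07 times. In CD4-equivalent DCs, 4 of 11 compared CD8-equivalent DC markers passed 2-fold toward ko (Clec9a, Cadm1, Irf8 and Cd24a), against 1.39% of all genes. So did 3 of 9 plasmacytoid DC markers (Siglech, Ccr9 and Cox6a2) and 1 of 11 CD4-equivalent DC markers (Mgl2). Toward wt, 2 of these 11 passed it (Clec4a4 and Ltb). In CD8-equivalent DCs, 1 gene of these lists passed 2-fold, Itgae, toward wt. The part of these cells in the differences was not tested.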

How the data were processed

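Gene expression was measured on 4 arrays, 1 for each genotype and sorted subset. The authors made the deposited log2 values, 1 for each probe set and array, with RMA and Partek, per the submitters' processing notes. RMA ordinarily corrects background, quantile-normalises arrays and summarises probes. No versions are named there. The log base was inferred from the values (3.52 to 14.3), and without scanner values the scale and centring could not be checked. The column medians were 5.88 for ko CD4-equivalent, 5.91 for wt CD4-equivalent, 5.94 for ko CD8-equivalent and 5.87 for wt CD8-equivalent DCs. RMA compresses differences near background.

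Of 35399 probe sets, 21789 carried 1 symbol in the platform annotation, 1621 several and 11989 were unnamed here. For 999 genes with several probe sets the one with the highest mean was used. The floor was the median of the single-symbol probe sets. limma 3.58.1 (R 4.3.3; lmFit, eBayes, additive in genotype and subset, two-sided, Benjamini-Hochberg, threshold 0.05) tested 10239 genes with 3.98 prior degrees of freedom. The p-values cover the scatter among these arrays alone, possibly technical. With 1 array per group this scatter is the difference between the subsets in the genotype difference, moderated over all tested genes. The fit was tested on simulated data. Array number limits the precision.

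The members and the lists of actin genes and cell markers were chosen with earlier results of these data known. Named are all members, their closest paralogs, listed actin genes past 2-fold or called, and the 5 genes nearest to Cfl2 by Euclidean distance of centred values. Capg, Dstn and the other actin genes named by counts of 5 or fewer, and the named genes of the cell marker lists, were chosen after their values were seen. Alternatives changed the scaling, probe set, floor, fold and prior.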

Additional observations from a re-analysis of the deposited data

Results flagged for a closer look

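Git2 differed by -0.09 between ko and wt CD4-equivalent DCs and by 0.007 between ko and wt CD8-equivalent DCs, so the signs of the genotype difference were opposite in the subsets. The gap between them, CD8-equivalent minus CD4-equivalent, was 0.0926 on the log2 scale. The median ko minus wt difference over all genes in CD4-equivalent DCs was -0.07. With arrays centred on the median the Git2 difference in CD4-equivalent DCs was -0.0197, and after cyclic loess it was -0.019. The gap between the subsets was not tested, since each group holds 1 array.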

How the results depend on the processing

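Cfl2, Arhgap35, Wasl and Twf1 stayed at least 1.5-fold higher in ko in both subsets after cyclic loess, after centring arrays on the median, and with the mean or the lowest probe set of each gene. With a 2-fold threshold the count was 2 in CD4-equivalent DCs and 2 in both subsets, in place of 4. The number of genes limma called for genotype was 17 as reported, 13 after cyclic loess and 17 with the mean of probe sets. It was 133 with arrays centred on the median, 63 with the lowest probe set and 3 without the floor. With the floor 1 log2 unit higher it was 120, and with the trended and robust prior 307. The number of members called was 0 as reported, after cyclic loess, with the mean of probe sets and without the floor. It was 4 with centred arrays, 2 with the lowest probe set, 3 with the higher floor and 4 with the trended and robust prior. The limma adjusted p of Cfl2 ran from 0.0045 to 0.118 and of Arhgap35 from 0.00974 to 0.118. For Wasl it ran from 0.0136 to 0.133 and for Twf1 from 0.0128 to 0.123. Without the floor more genes are tested, and with the higher floor fewer, and limma's prior is fitted anew on each set of genes. The cause of the shifts was not tested. Of the called genes 11 of 17 were higher in ko as reported, 89 of 133 with centred arrays, 37 of 63 with the lowest probe set, 72 of 120 with the higher floor, 1 of 3 without the floor and 178 of 307 with the trended prior. For the subset effect limma called 1467 genes, 817 of them higher in CD8-equivalent DCs, against 946 (501 higher) without the floor and 1720 (786 higher) with centred arrays. The median CD8-equivalent minus CD4-equivalent difference of the ko arrays over all genes was 0.006 after centring, against 0.11 as deposited. Arhgap35 was the 1 member past 1.5-fold between subsets as deposited, in ko (0.68) and not in wt (0.576, under the 0.585 of 1.5-fold). After centring it differed by 0.58 in ko, and after cyclic loess by 0.53, so the count became 0 under both. limma called Arhgap35 in all 7 alternatives (adjusted p from 0.0158 to 0.0445). Leaving out the arrays of a subset gives the single differences of the report, between -0.13 and 1.36, with no test. The labels give no replicate numbers by which to pair arrays, and the limma model itself sets ko against wt within each subset.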
